A study of Mus musculus with 18 samples.

Results

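Immediate early transcription factors are the genes that a cell switches on within minutes of a stimulus, before any new protein has been made. Of the 10 such genes chosen here by symbol, Fos, Fosb, Jun, Junb, Jund, Egr1, Atf3, Myc, Ier2 and Nr4a1, 7 were measurable in mouse tibialis anterior muscle and are described. The array carried 12 probes for the 10 genes, and 7 of these probes, 1 for each of the 7 genes, were above background (detection p under 0.05) on at least 3 of 17 arrays. The rule did not use any difference between groups. The whole set tested held 11233 genes.

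Fos, FosB, c-Jun, JunB and JunD pair up into the dimers known as AP-1. Egr1 is a zinc finger factor driven by the MAP kinase and SRF pathway, and Atf3 is a stress-induced bZIP factor that can pair with Jun proteins. In skeletal muscle these genes are known to rise for a short time after contraction, stretch, injury and tissue handling, and their messages decay quickly. JunD is the AP-1 subunit known for steady expression, and its message is usually little changed by stimulation.

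The study compared 2 legs of 2-month-old mice of 3 strains. Single-stranded RNA (ssRNA), which endosomal Toll-like receptors sense, was injected into the muscle of 1 leg and saline into the contralateral leg, with 3 injections over 10 days and 3 days of recovery between them. The time from the last injection to collection of the muscle was not among the sample details used here. A short rise that had ended by then would not be seen. The A/JOlaHsd strain served as the dysferlin sufficient wild type, A/J mice are deficient in dysferlin, and A/J-MyD88 deficient mice are deficient in both dysferlin and MyD88, an adaptor protein used by nearly every Toll-like receptor. Each of the 6 groups of strain and injection had 3 arrays of total RNA from whole muscle, but A/JOlaHsd ssRNA array 2 held no signal and is left out, which leaves 2 arrays in that group. No group was without injection, so the effect of the needle cannot be told apart from that of saline. The labels do not say that the same number in both legs marks the same mouse.

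The mean signal of an array lay between 37.4 and 50.2 in A/JOlaHsd, between 120.5 and 147.3 in A/J and between 98.1 and 140.3 in A/J-MyD88 deficient mice, so signal strength and strain cannot be told apart between A/JOlaHsd and the other strains. Dysf was lower in both deficient strains, at 5.63 to 6.39 in normalised log2 signal against 9.34 to 9.71 in A/JOlaHsd. The Myd88 probe read 7.29 to 7.97 in A/J-MyD88 deficient muscle and 6.73 to 8.32 in A/J muscle, and whether it lies in the deleted part was not tested. All 11 muscle fibre markers tested were above background on all 17 arrays. In A/J, 14 of 17 macrophage and monocyte markers were higher in ssRNA legs than in saline legs, with summed signals of 9667 to 13275 against 733 to 1596. At the same adjusted p of 0.05, 22.4% of all genes differed between these legs (1394 higher and 1124 lower). In whole muscle, a change in the number of cells of a type cannot be told apart from a change in RNA per cell.

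The promoters of Fos, Fosb, Atf3 and Jun are shown as background, and no link between them and the measured values was tested. RefSeq's promoter table for GRCm38.p6 had no entry for Egr1, Myc and Ier2. It held the other 7 of the 10 genes, namely Fos, Fosb, Jun, Junb, Jund, Atf3 and Nr4a1. The 250 bases before the start site are given below for 4 of them, each 5′ to 3′ on the gene's own strand. Capitals mark TGACG, the shared core of cAMP response elements and ATF sites, on either strand (CGTCA on the other strand), and TATAAA in Fos. In Jun the capitals mark TGACATCA, the variant of the AP-1 site through which Jun is known to drive its own gene. The windows are chr12:85473640-85473889 (plus strand), chr7:19310046-19310295 (minus strand), chr1:191183334-191183583 (minus strand) and chr4:95052223-95052472 (minus strand).
Fos: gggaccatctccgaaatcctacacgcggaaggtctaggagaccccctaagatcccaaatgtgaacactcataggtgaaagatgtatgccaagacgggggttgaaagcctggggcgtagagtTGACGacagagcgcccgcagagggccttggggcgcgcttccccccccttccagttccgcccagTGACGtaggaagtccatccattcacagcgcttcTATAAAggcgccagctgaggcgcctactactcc
Fosb: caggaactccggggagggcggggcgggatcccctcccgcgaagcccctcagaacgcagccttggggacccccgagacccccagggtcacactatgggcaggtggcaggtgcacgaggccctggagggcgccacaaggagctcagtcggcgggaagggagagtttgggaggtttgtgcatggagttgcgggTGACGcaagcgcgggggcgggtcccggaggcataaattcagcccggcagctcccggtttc
Atf3: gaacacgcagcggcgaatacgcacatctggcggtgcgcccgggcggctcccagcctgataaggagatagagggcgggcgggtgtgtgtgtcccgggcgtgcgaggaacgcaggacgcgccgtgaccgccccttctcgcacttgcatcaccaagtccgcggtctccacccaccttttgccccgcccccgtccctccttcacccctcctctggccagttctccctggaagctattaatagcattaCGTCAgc
Jun: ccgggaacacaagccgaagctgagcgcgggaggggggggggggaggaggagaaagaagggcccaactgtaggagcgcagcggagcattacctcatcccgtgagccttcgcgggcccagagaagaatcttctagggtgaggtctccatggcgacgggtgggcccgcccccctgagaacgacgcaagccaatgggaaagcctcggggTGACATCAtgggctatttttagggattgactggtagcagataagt

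TGACG was found in 5 of the 7 promoters (Atf3, Fos, Fosb, Junb and Nr4a1), and in 17.8% of all 32851 promoter windows of the same length, counting both strands. In Fos it lay at bases 129 to 125 and 66 to 62 before the start, in Fosb at 60 to 56, in Junb at 106 to 102 and in Atf3 at 7 to 3. The start is that of the promoter entry, which need not be the outer end of the gene. The Fosb window overlaps the gene's full span (19302696 to 19310118). That of Nr4a1 (101266596 to 101266845) lies inside its full span (101253902 to 101274795). TGACATCA was found in Jun alone among the 7, at bases 45 to 38 before the start, against 2.93% of all windows. The full palindrome TGACGTCA was in 0 of 7 (1.55% of all), TGACTCA in 0 of 7 (4.46%), the CArG box of SRF in 0 of 7 (1.47%) and TATAAA in 1 of 7 (12.4%). These are matches of letters on both strands within the windows, not measured binding sites, and TGACGTCA contains TGACG. Bases farther than 250 before the start were not searched and Egr1 had no window, so a count of 0 of 7 covers neither.

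Fos encodes the founding Fos protein, which needs a Jun partner to bind DNA. Its gene lies on chromosome 12 (85473890 to 85477274, GRCm38.p6). Values are normalised log2 signals, on a scale where 1 unit is a doubling. On the A/JOlaHsd arrays Fos read 6.998, 6.15 and 6.22 after saline (arrays 1, 2 and 3) and 6.71 and 5.68 after ssRNA (arrays 1 and 3). A/J arrays read 7.47, 5.88 and 5.81 after saline and 6.32, 6.72 and 6.29 after ssRNA. A/J-MyD88 deficient arrays read 9.003, 6.21 and 6.25 after saline and 7.72, 6.71 and 5.19 after ssRNA. In every strain the saline array numbered 1 was the highest of its 3, and the legs overlapped. The highest and the lowest of the 17 arrays, both from A/J-MyD88 deficient muscle, stood 14.02-fold apart. The difference between ssRNA and saline was -0.26 ± 0.77 (SE) in A/JOlaHsd, 0.06 ± 0.69 in A/J and -0.61 ± 0.69 in the A/J-MyD88 deficient strain, with limma's adjusted p at 0.935, 0.968 and 1.00. For A/J the 95% interval ran from -1.40 to 1.52, or from 0.378-fold to 2.87-fold, so a change of that size was not detectable with this spread.

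Egr1, on chromosome 18 (34861207 to 34864956), was above background on all 17 arrays. A/JOlaHsd saline arrays read 8.29, 7.89 and 9.01, and ssRNA arrays 1 and 3 read 8.25 and 7.97. In A/J the saline legs read 9.98, 7.57 and 7.23 and the ssRNA legs 8.84, 8.72 and 8.43. The A/J-MyD88 deficient saline legs read 10.82, 8.58 and 8.08 and the ssRNA legs 10.55, 9.26 and 8.12. The arrays that were high for Fos, those numbered 1 in A/J saline and in both A/J-MyD88 deficient groups, were also the 3 highest for Egr1. The 3 A/J ssRNA legs lay close together, inside the wide range of the saline legs. Egr1 differed between legs by -0.29 ± 0.81 in A/JOlaHsd, by 0.40 ± 0.73 in A/J and by 0.15 ± 0.73 in the A/J-MyD88 deficient strain, with adjusted p of 0.932, 0.750 and 1.00. The 17 arrays spanned 12.0-fold.

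Fosb, a second Fos family member known for its slowly accumulating short form in repeatedly stimulated tissue, lies on chromosome 7 (19302696 to 19310118). Its signal was at the edge of detection, above background on 7 of 17 arrays. After saline the A/JOlaHsd arrays read 5.72, 4.27 and 4.15, of which array 1 alone was above background, and after ssRNA they read 4.75 and 4.33, neither above background. In A/J none of the saline arrays (4.49, 4.39 and 4.33) and 2 of the ssRNA arrays (4.46, 4.41 and 4.57) were above background. Of the A/J-MyD88 deficient arrays, all saline arrays (5.26, 4.50 and 4.50) and 1 of the ssRNA arrays (4.74, 4.42 and 4.38) were above background. All 3 A/J-MyD88 deficient saline legs thus lay above all 3 A/J saline legs, but arrays 2 and 3 did so narrowly and near background. Between these groups 30.2% of all genes did not overlap. With the A/J arrays taken at the lowest signal that passed detection on each (mean 4.55), the group means stood 1.15-fold apart. A/J-MyD88 deficient saline arrays 2 and 3 read below that level, so this fold rests on array 1 and is not a bound for the group. The fitted difference was 0.35 ± 0.31 (adjusted p = 0.650), and without A/J-MyD88 deficient saline array 1 it was 0.09. Between legs the fit gave -0.17 ± 0.35 in A/JOlaHsd, 0.08 ± 0.31 in A/J and -0.24 ± 0.31 in the A/J-MyD88 deficient strain, with adjusted p of 0.896, 0.898 and 1.00.

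**Figure D1:**
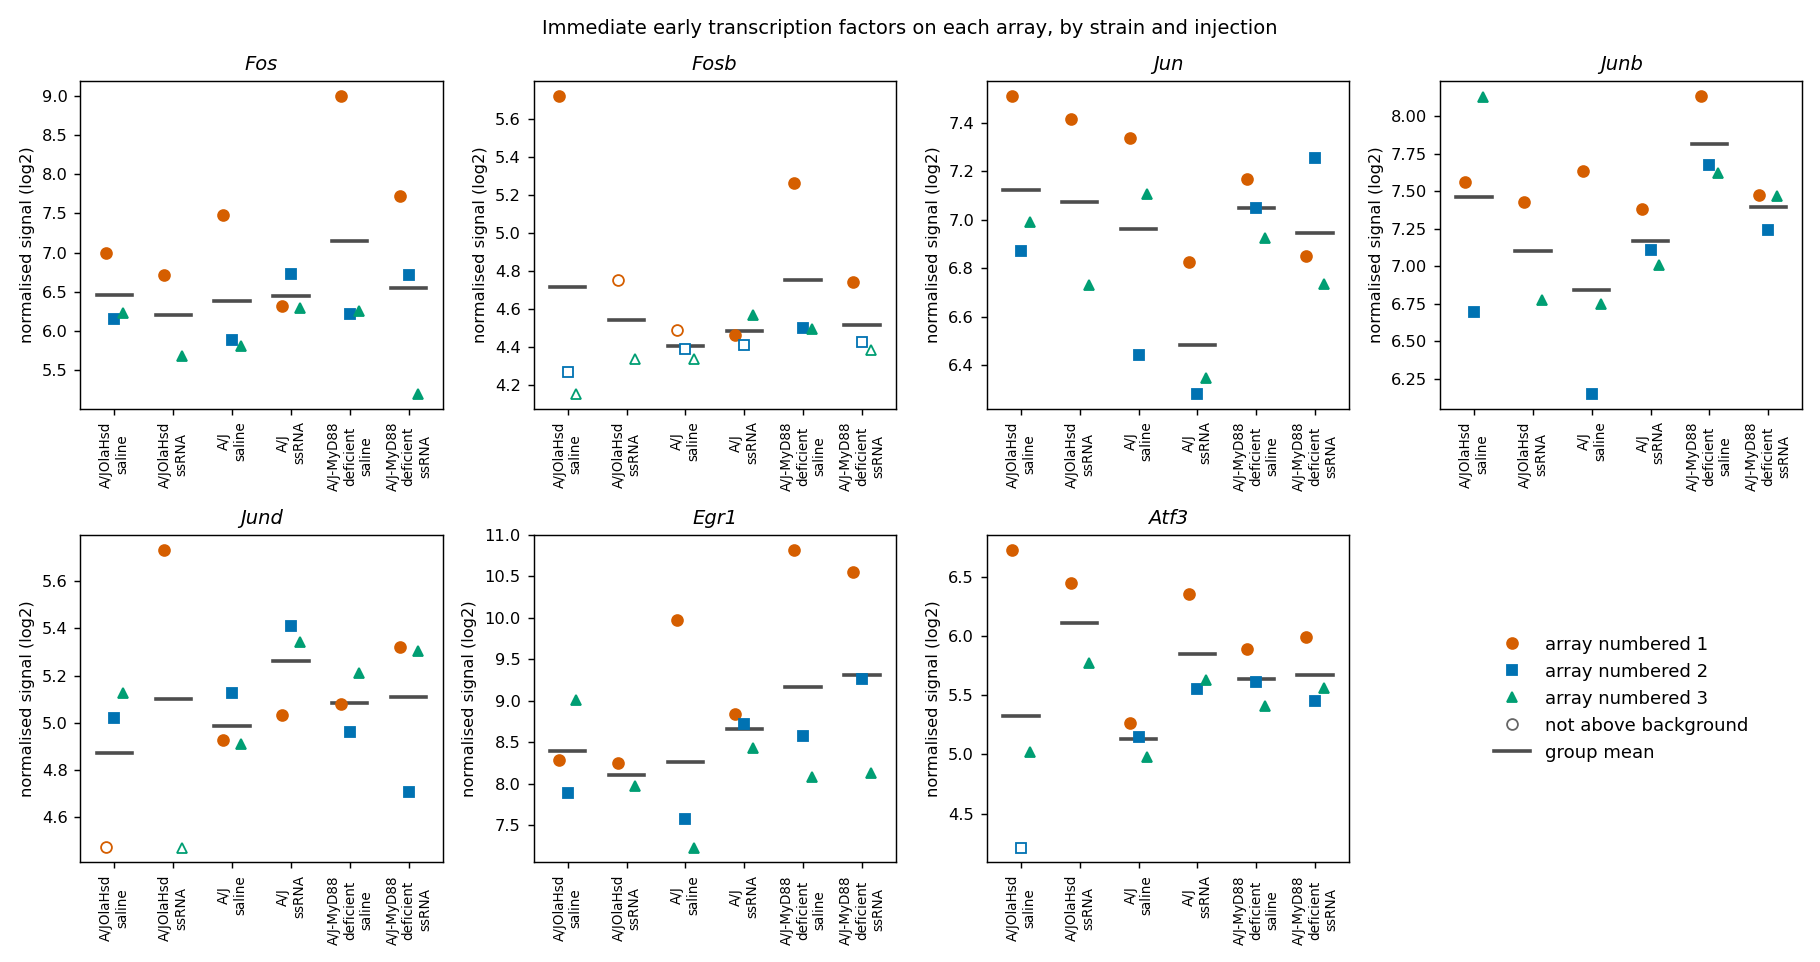
Normalised log2 signal (vertical axis of each panel) of the 7 described genes on each of 17 arrays, by strain and injection (horizontal axis); colour and shape give the array number, open symbols are arrays not above background and bars are group means. Egr1 and Fos were highest on the arrays numbered 1 of A/J saline and both A/J-MyD88 deficient groups. Atf3 separated the legs in A/J, with saline at 4.98 to 5.27 and ssRNA at 5.55 to 6.36, as did 44.7% of all genes.

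Jun, on chromosome 4 (95049036 to 95052222), encodes c-Jun, the AP-1 subunit that is activated by the JNK kinases. A/JOlaHsd legs read 7.51, 6.87 and 6.99 after saline and 7.41 and 6.73 after ssRNA. A/J legs read 7.34, 6.44 and 7.10 after saline and 6.83, 6.28 and 6.35 after ssRNA. A/J-MyD88 deficient legs read 7.17, 7.05 and 6.93 after saline and 6.85, 7.25 and 6.74 after ssRNA. In A/J each ssRNA leg was below the saline leg of the same number, by 0.51, 0.16 and 0.76, but the groups overlapped through saline array 2. The A/J difference was -0.48 ± 0.24, with a 95% interval from -0.995 to 0.04 and an adjusted p of 0.186. With the replicate number as a block, which removes what same-numbered legs share, it was -0.48 ± 0.15 (adjusted p = 0.0432). Without A/J saline array 2 it was -0.73 (adjusted p = 0.0402), and without A/J saline array 1 it was -0.29 (adjusted p = 0.511). In the other strains Jun differed by -0.05 ± 0.27 (A/JOlaHsd, adjusted p = 0.964) and -0.10 ± 0.24 (A/J-MyD88 deficient, adjusted p = 1.00). Jun's response in A/J-MyD88 deficient mice minus that in A/J was 0.38 ± 0.35, which did not pass the test (adjusted p = 0.572).

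Junb encodes the AP-1 subunit that often opposes c-Jun, and lies on chromosome 8 (84976909 to 84978748). A/JOlaHsd saline legs read 7.56, 6.69 and 8.13 and ssRNA legs 7.43 and 6.78. The A/J saline legs read 7.64, 6.15 and 6.75 and the ssRNA legs 7.38, 7.11 and 7.01. The A/J-MyD88 deficient saline legs read 8.14, 7.68 and 7.63 and the ssRNA legs 7.48, 7.24 and 7.47. In the A/JOlaHsd and A/J strains the legs overlapped. All A/J-MyD88 deficient ssRNA legs were below all saline legs of that strain, where 8.86% of all genes did not overlap. That difference was -0.42 ± 0.34, with an adjusted p of 1.00 in a comparison in which 0% of the 11233 genes passed and 131 had an unadjusted p under 0.05. The difference between legs was -0.36 ± 0.38 in A/JOlaHsd (adjusted p = 0.762) and 0.32 ± 0.34 in A/J (adjusted p = 0.562). A second Junb probe, to another transcript accession, was above background on 0 of 17 arrays.

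Among all members and comparisons, the smallest unadjusted p was that of Junb in saline legs, A/J-MyD88 deficient against A/J. There it was higher by 0.97 ± 0.34, with a 95% interval of 1.18-fold to 3.24-fold, an unadjusted p of 0.0123 and an adjusted p of 0.130. The groups overlapped by a hair, since A/J saline array 1 (7.64) stood above A/J-MyD88 deficient saline array 3 (7.63). Without A/J saline array 1 the difference was 1.36 (adjusted p = 0.0280), and without A/J saline array 2 it was 0.62 (adjusted p = 0.380).

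Jund, also on chromosome 8 (70697739 to 70700616), was near background, and above it on 15 of 17 arrays. Its A/JOlaHsd legs read 4.48, 5.02 and 5.13 after saline and 5.73 and 4.47 after ssRNA, with saline array 1 and ssRNA array 3 not above background. In A/J they read 4.93, 5.13 and 4.91 after saline and 5.03, 5.41 and 5.34 after ssRNA. The A/J-MyD88 deficient legs read 5.08, 4.96 and 5.21 after saline and 5.32, 4.71 and 5.30 after ssRNA. The legs overlapped in all 3 strains. Jund differed between legs by 0.23 ± 0.29 in A/JOlaHsd, 0.27 ± 0.26 in A/J and 0.03 ± 0.26 with both deficiencies, with adjusted p of 0.802, 0.503 and 1.00. Median centring of the arrays in place of quantile normalisation gave 0.56 ± 0.16 in A/J (adjusted p = 0.0188), a setting in which the median of all genes was itself 0.10.

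Atf3, on chromosome 1 (191170296 to 191183333), was the member whose legs separated in A/J, as did those of 44.7% of all genes. Its A/J saline legs read 5.27, 5.15 and 4.98 and its ssRNA legs 6.36, 5.55 and 5.63. A/JOlaHsd legs read 6.73, 4.21 and 5.02 after saline and 6.45 and 5.77 after ssRNA, with saline array 2 not above background. A/J-MyD88 deficient legs read 5.89, 5.61 and 5.41 after saline and 5.99, 5.45 and 5.56 after ssRNA. All A/J ssRNA legs were above all A/J saline legs, while in the other strains the legs overlapped. In the fit to all 17 arrays the A/J difference was 0.71 ± 0.43 (adjusted p = 0.264), with a 95% interval from 0.873-fold to 3.08-fold. The spread in that fit is shared by all groups, and the A/JOlaHsd saline legs had an SD of 1.28 against 0.14 and 0.44 in the A/J saline and ssRNA legs. Normalised and fitted on the A/J arrays alone, Atf3 was higher by 0.79 ± 0.22 (adjusted p = 0.0293), in a fit that called 28.7% of all genes. With the replicate block it was higher by 0.71 ± 0.20 (adjusted p = 0.0262), where 23.1% of all genes were called.

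The call on Atf3 in A/J changed with the setting. It passed in 5 of 17 alternatives. Over the 17 the difference ran from 0.45 to 1.04 and the adjusted p from 0.0188 to 0.976, and it was positive in all 17. The 5 settings overlap. Each strain normalised alone, the compared groups alone and the submitters' values, which look normalised by strain, all gave 0.79. Leaving out A/J ssRNA array 1 gave 0.45 (adjusted p = 0.588). Atf3 differed by 0.79 ± 0.48 in A/JOlaHsd (adjusted p = 0.504) and by 0.03 ± 0.43 in A/J-MyD88 deficient mice (adjusted p = 1.00). Without A/JOlaHsd saline array 1, the A/JOlaHsd difference was 1.52 (adjusted p = 0.0189), and without saline array 2 it was 0.24 (adjusted p = 0.860). The response of A/J-MyD88 deficient mice minus that of A/J mice was -0.68 ± 0.61 (adjusted p = 0.556), so a difference between the strains in this response was not shown. Beside this, the mean log2 level of the 17 macrophage markers tested lay between 5.42 and 5.86 in A/J saline legs and between 7.69 and 8.16 in A/J ssRNA legs. Their part in the Atf3 values was not tested.

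**Figure D2:**
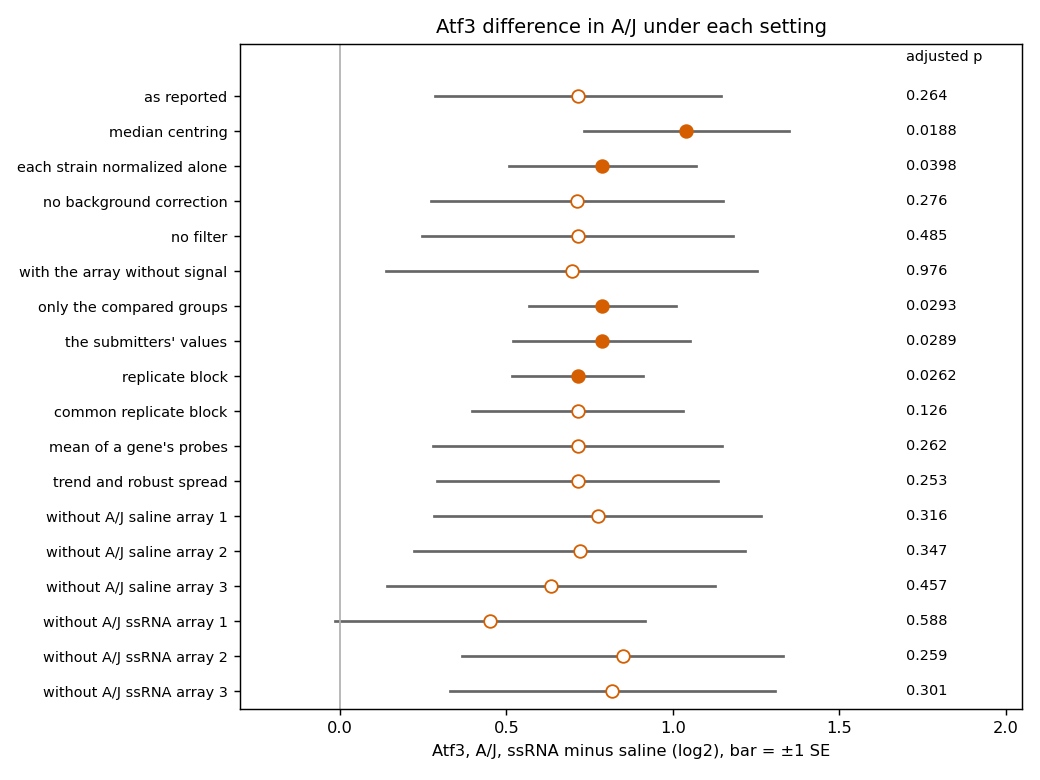
Difference of Atf3 between ssRNA and saline legs of A/J mice (horizontal axis, log2, bars of 1 SE either side) under the reported fit and each of 17 alternatives (vertical axis), with the adjusted p at the right; filled points passed 0.05. The 5 settings that passed were median centring, each strain normalised alone, the compared groups alone, the submitters' values and the replicate block.

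Of the 3 genes not described, Ier2 was above background on 0 of 17 arrays, with signals from -3.59 to 5.53. Myc had 2 probes, above background on 0 and 1 of 17 arrays, and Nr4a1 had 1 probe, above background on 1 of 17. Ier2 encodes a small nuclear protein of the immediate early class, Myc the growth-promoting bHLH factor, and Nr4a1 an orphan nuclear receptor. No level or fold is given for them.

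Across the 8 comparisons, 0 of the 7 described members passed an adjusted p of 0.05 in the fit to all arrays. The share of all 11233 genes that passed was 1.9% for ssRNA against saline in A/JOlaHsd and 22.4% in A/J. It was 7.57% for the response of A/J minus that of A/JOlaHsd and 10.2% for the response of A/J-MyD88 deficient minus that of A/J mice. Between strains it was 47.2% for saline legs of A/J against A/JOlaHsd, 5.38% for saline legs of A/J-MyD88 deficient against A/J, and 5.66% for their ssRNA legs. With 7 genes, nothing particular to the members is read from a count of 0 beside these shares. By unadjusted p under 0.05, 1 member passed in 1 comparison, Junb as given above.

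In A/J the members' differences between legs ran from -0.48 (Jun) to 0.71 (Atf3), with a median of 0.27 against -0.05 for all genes, and 6 of 7 were above 0. For the A/J-MyD88 deficient strain the median was -0.10 against 0.01, with 3 of 7 above 0, and in A/JOlaHsd it was -0.17 against -0.0005, with 2 of 7 above 0. Single arrays moved these medians. In A/J the median was 0.04 without saline array 3 and 0.06 without saline array 2, with 4 of 7 above 0 each time, and 0.60 without saline array 1. In A/JOlaHsd 5 of 7 were above 0 without ssRNA array 3 (median 0.25) or without saline array 1 (0.03), as were 5 of 7 in the A/J-MyD88 deficient strain without its saline array 1 (0.03). In the order of the 6 group means, every neighbouring pair of groups overlapped for each of the 7 members. For Egr1 they ran from 9.31 (A/J-MyD88 deficient ssRNA) through 9.16, 8.66, 8.40 and 8.26 to 8.11 (A/JOlaHsd ssRNA), and for Atf3 from 6.11 (A/JOlaHsd ssRNA) through 5.84, 5.67, 5.64 and 5.32 to 5.13 (A/J saline). Atf3 was the single member whose legs did not overlap in A/J, where 44.7% of all genes did not overlap. Junb was the single one in A/J-MyD88 deficient mice, where 8.86% did not, and none of the 7 was so in A/JOlaHsd, where 18.5% did not.

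**Figure D3:**
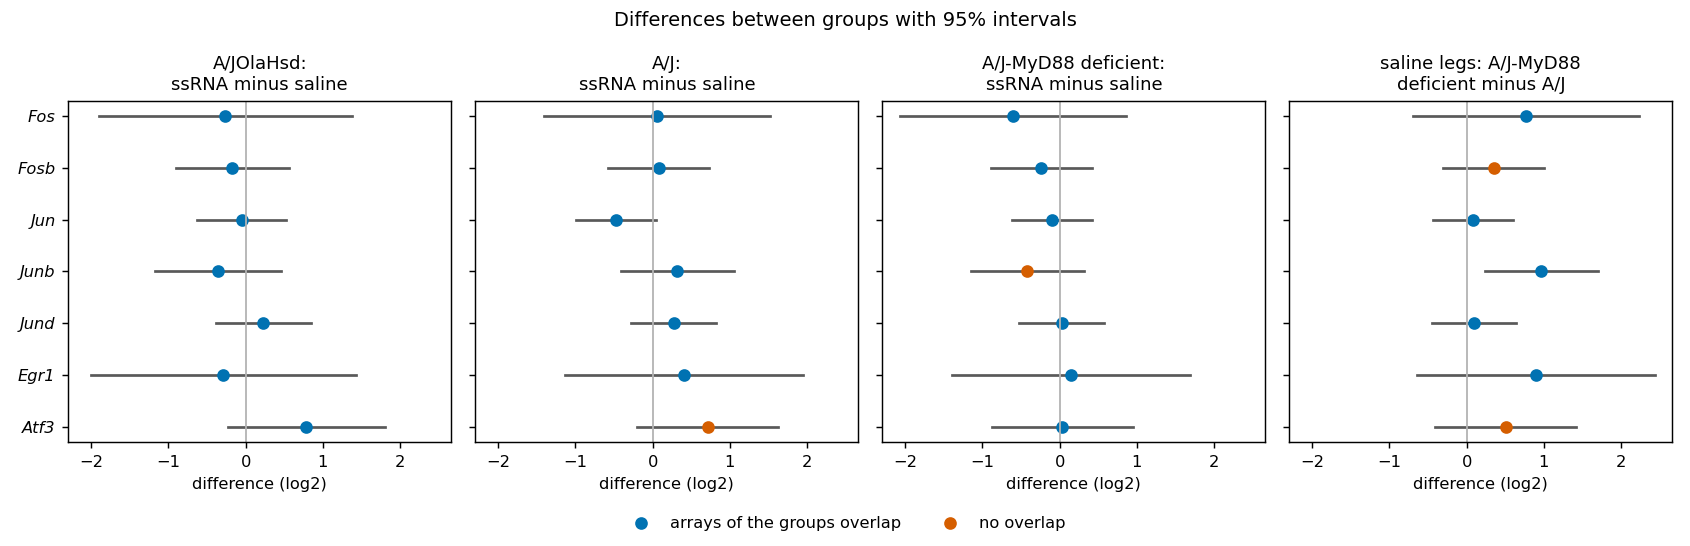
Difference between groups in log2 (horizontal axis) for each gene (vertical axis) with its 95% interval from the fit to 17 arrays, for ssRNA minus saline in each strain and for saline legs of A/J-MyD88 deficient minus A/J mice; orange points are groups whose arrays did not overlap. The intervals of Fos and Egr1 are the widest, and among the intervals drawn, that of Junb between saline legs alone leaves out 0.

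Saline legs of A/J-MyD88 deficient mice read higher than those of A/J mice for 7 of 7 members, by 0.09 (Jun) to 0.97 (Junb), with a median of 0.50 against -0.01 for all genes. Without A/J-MyD88 deficient saline array 1 the median was 0.09, with 6 of 7 above 0. Fosb and Atf3 did not overlap between the strains, as did 30.2% of all genes. Atf3 stood at 5.89, 5.61 and 5.41 against 5.27, 5.15 and 4.98, a difference of 0.50 ± 0.43 (adjusted p = 0.630). Fos and Egr1 differed by 0.77 ± 0.69 and 0.90 ± 0.73, and without A/J-MyD88 deficient saline array 1 these were -0.16 and 0.07. In the same saline legs, 10 of 17 macrophage markers were higher in A/J-MyD88 deficient mice, with summed signals of 3702 to 6610 against 733 to 1596 in A/J. So were 4 of 7 satellite cell and myoblast markers (median 0.86) and 2 of 9 fibroblast markers (median 0.45). Of all genes, 5.38% were called in this comparison (493 higher and 111 lower). The part of these markers in the members' values was not tested. The ssRNA legs of the 2 strains differed by -0.18 (Atf3) to 0.65 (Egr1), with adjusted p from 0.293 to 0.973. The A/J saline group enters both this comparison and that of the legs in A/J.

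Saline legs of A/J and A/JOlaHsd mice differed by -0.62 (Junb) to 0.11 (Jund), with 6 of 7 members below 0 and adjusted p from 0.154 to 0.944. None of the 7 separated the groups, against 50.4% of all genes. For Junb the difference was -0.62 ± 0.34, and it passed without A/J saline array 1 (-1.01, adjusted p = 0.0215) or without A/JOlaHsd saline array 2 (-1.001, adjusted p = 0.0224), but stood at -0.27 (adjusted p = 0.559) without A/J saline array 2. The direction depended on the scaling and on single arrays. After median centring 6 of 7 members were above 0 and Fos, Jun, Junb, Egr1 and Atf3 had turned, and without A/J saline array 2 or without A/JOlaHsd saline array 1 4 of 7 were above 0. Jun was -0.16 ± 0.24 after quantile normalisation and 1.18 (adjusted p = 0.00151) after median centring, which moved the median of all genes in this comparison from -0.02 to 0.76.

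Within groups, the members varied more than most genes. The residual SD was 1.06 for Egr1, 1.01 for Fos, 0.62 for Atf3, 0.49 for Junb, 0.44 for Fosb, 0.36 for Jund and 0.34 for Jun, against a median of 0.21 over all genes. Fos and Egr1 each had a larger SD than 99.9% of all 11233 genes, and than 99.7% and 99.9% of the genes within 0.5 log2 units of their mean level. For Jun and Jund the share of all genes with a smaller SD was 89.1% and 92.0%. With an SE of 0.69 for Fos and 0.73 for Egr1 between legs of A/J, against a median SE of 0.16 over all genes, these 2 genes had the widest intervals of the set.

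The spread followed the array number. For 6 of the 7 members (all but Jund), the array numbered 1 was the highest of its group in 5 or 6 of the 6 groups. The same held for 2.77% of all genes (311 of 11233), counting A/JOlaHsd ssRNA as a group of 2 arrays. Atf3 was highest on array 1 in 6 of 6 groups, Fos, Fosb, Jun, Junb and Egr1 in 5 of 6 and Jund in 2 of 6. A block for the array number shared by all strains, a setting chosen after seeing the data, lowered the residual SD of Fos from 1.01 to 0.69, of Egr1 from 1.06 to 0.84 and of Atf3 from 0.62 to 0.46. It moved that of Jund from 0.36 to 0.40, and the median of all genes from 0.206 to 0.203. The labels do not say whether a number marks a mouse, a day or an order of dissection, so the source of this pattern was not tested, and no member was called with this block.

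**Figure D4:**
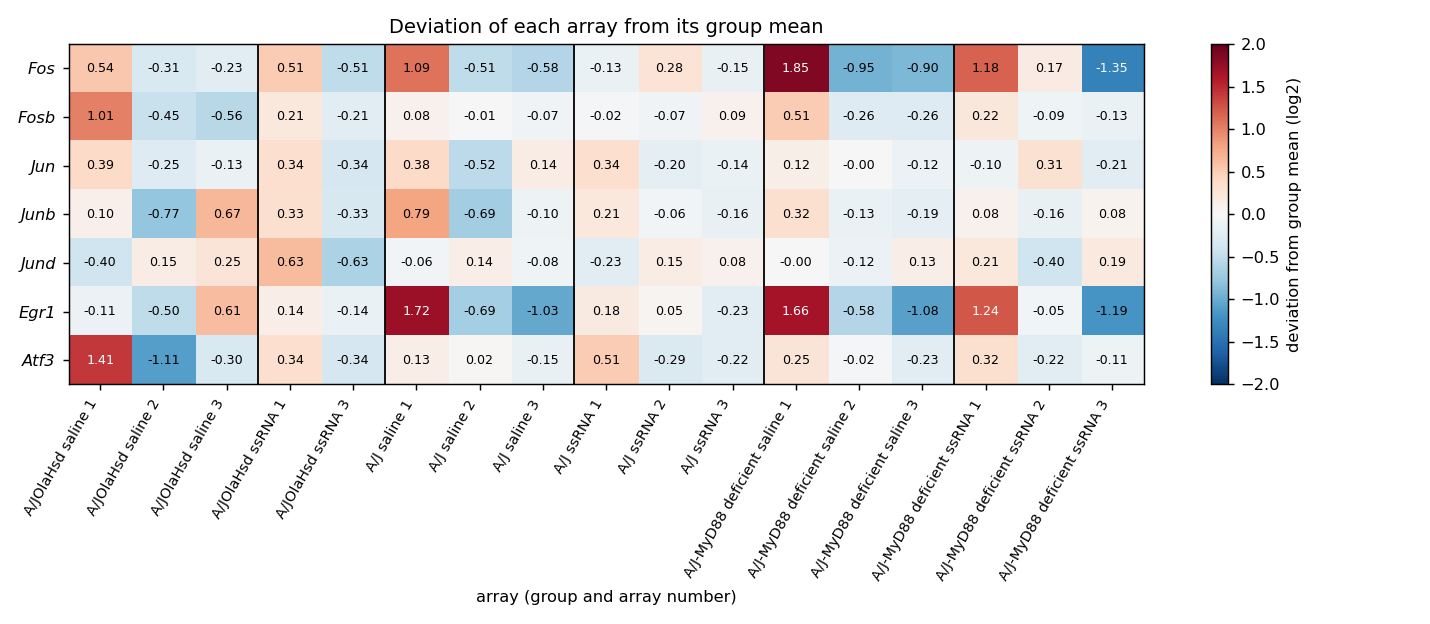
Deviation of each array (columns, by group and array number) from its group mean in log2 for the 7 genes (rows), with the values in the cells and colour from blue (below) to red (above). The largest deviations are those of Fos (1.85) and Egr1 (1.66) on A/J-MyD88 deficient saline array 1, of Egr1 (1.72) on A/J saline array 1 and of Atf3 (1.41) on A/JOlaHsd saline array 1.

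All members but Jund deviated together to differing degrees, most closely Fos with Egr1 and Fosb with Atf3. With the mean of the 7 members' standardised deviations, which includes the gene itself, r was 0.720 (Fosb) to 0.835 (Fos), but 0.156 for Jund. Over the 17 arrays, the deviations of Fos and Egr1 from their group means had a Pearson r of 0.895 and a Spearman rho of 0.868. Without the 2 arrays farthest from the median of Fos, r was 0.822, and without each array in turn it ran from 0.839 to 0.938. Fosb and Atf3 had an r of 0.849 (rho 0.784, and 0.704 without the 2 farthest), a pair in which A/JOlaHsd saline array 1 was the highest for both. Fosb was above background on only 7 of the 17 arrays. Junb with Egr1 stood at 0.648, Fos with Fosb at 0.612, Jun with Junb at 0.609 and Jun with Atf3 at 0.591. Fos with Atf3 stood at 0.409 and Egr1 with Atf3 at 0.280. Jund had an r between -0.176 and 0.157 with every other member, though with Atf3 it was -0.542 without the 2 farthest arrays. These are descriptions over all pairs of members and carry no p. The arrays of a pair share their normalisation and RNA, and same-numbered legs may share a mouse.

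**Figure D5:**
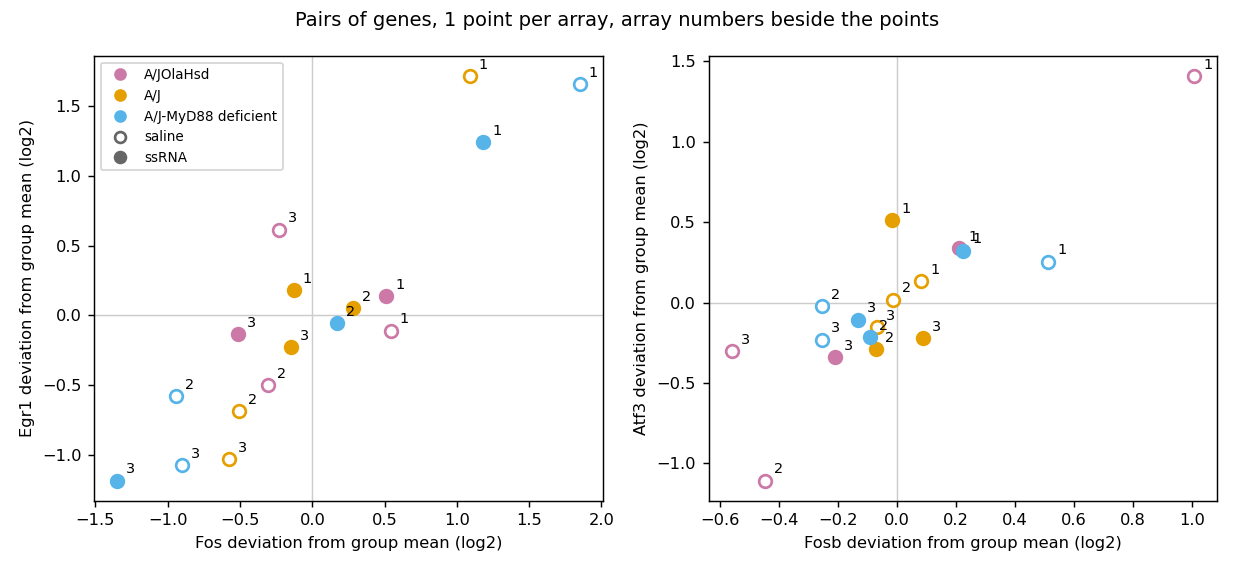
Deviation from the group mean in log2 of Egr1 (vertical axis) against Fos (horizontal axis) at the left and of Atf3 against Fosb at the right, 1 point for each of 17 arrays, coloured by strain, open for saline and filled for ssRNA, with array numbers beside the points. Fos and Egr1 spread along a line (r = 0.895) with 3 arrays numbered 1 at its top, while the Fosb and Atf3 panel is drawn out by the A/JOlaHsd saline arrays.

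Other measures, likewise taken as deviations from group means, were set beside these over the same 17 arrays. The mean level of the 5 T and NK cell markers tested had an r of 0.728 with Egr1 and 0.566 with Fos, and that of the heat shock genes -0.715 and -0.480. Endothelial markers stood at 0.596 with Egr1 and 0.584 with Fos, and fibroblast markers at 0.597 and 0.35. Of these T and NK cell markers, Cd3e, Cd3d, Cd3g, Nkg7 and Klrd1 were above background on at most 6, 4, 4, 10 and 12 of 17 arrays. Outside the ssRNA legs of A/J and A/JOlaHsd their mean level lay between 4.23 and 4.58, near background. The share of probes detected on an array stood at 0.617 with Egr1 and 0.447 with Fos, and the array's mean signal at 0.249 and 0.343. For the macrophage markers the values were 0.224 with Egr1, -0.158 with Fos and 0.043 with Atf3. The muscle fibre markers stood at 0.656 with Atf3. The part of any of these in the members' spread was not tested.

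The genes outside the set whose level was most like the mean of the 7 members over the 17 arrays were Egr3 (r = 0.768), Tnf (0.723), Nipal2 (0.713), Slc22a21 (0.689) and Ier3 (0.678). By deviations from group means they were Samd10 (0.860), Tnk2 (0.844), Sertad1 (0.842), Egr3 (0.841) and Uri1 (0.841). In the first list, Tnf (4.18 to 4.53), Nipal2 (4.22 to 4.62) and Slc22a21 (4.21 to 4.74) lay near background, so little is read from their likeness. Egr3, a close relative of Egr1, was in both lists. It read 7.20 and 6.32 on the arrays numbered 1 of A/J-MyD88 deficient saline and ssRNA legs, against 5.31 to 5.90 on the other 4 arrays of that strain.

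Among 18 of 25 further immediate early genes that could be tested, 3 rose in A/J ssRNA legs and 0 fell, with a median of 0.10 against -0.05 for all genes. The counts in A/J here and for the lists that follow stand beside 22.4% of all genes called (1394 higher and 1124 lower), and nothing particular to a list is read from them. They were Ccn2, a matrix-associated growth factor also known as Ctgf (1.31 ± 0.31, adjusted p = 0.00643), Egr2 (0.67 ± 0.20, adjusted p = 0.0219) and the zinc finger factor Klf6 (0.65 ± 0.21, adjusted p = 0.0328). Egr2 lost its call without A/J saline array 3 (0.55, adjusted p = 0.113) and Klf6 without A/J saline array 1 (0.52, adjusted p = 0.136). With both deficiencies 0 of 18 and 0% of all genes passed, the lowest unadjusted p in the list being 0.0645. In A/JOlaHsd, where 1.9% of all genes passed, 1 fell, Plk3, a stress kinase. Plk3 was above background on 0 of 2 ssRNA arrays and was at least 1.37-fold lower in the fit to 17 arrays. It was not called without A/JOlaHsd ssRNA array 1 (adjusted p = 0.0542) and passed in 5 of 10 other alternatives, with a fitted difference of -0.38 in the authors' values (adjusted p = 1.00), which is smaller than that bound. In saline legs of A/J-MyD88 deficient against A/J mice 2 of 18 were higher and 0 lower, beside 5.38% of all genes called (493 higher and 111 lower). Csrnp1, a nuclear factor induced by Axin, was higher by 1.58 ± 0.15 (adjusted p = 3.73e-05), and Egr2 by 0.73 ± 0.20 (adjusted p = 0.0386, and 0.194 without A/J saline array 3). Csrnp1 was also higher in the ssRNA legs, by 1.38 ± 0.15 (adjusted p = 7.04e-05). Its position relative to the altered Myd88 allele was not examined, so an effect of DNA near that allele was not tested.

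Of the kinases and factors that feed these genes, 17 of 23 were tested, and in A/J 0 rose and 2 fell. Map2k1, the kinase of ERK, fell by 0.82 ± 0.27 (adjusted p = 0.0350) and Mapkapk2, a target of p38, fell by 0.59 ± 0.15 (adjusted p = 0.0110). Map2k1 was not called without A/J saline array 1 (-0.66, adjusted p = 0.137) nor with the replicate block (adjusted p = 0.0515), and Mapkapk2 not without A/J saline array 3 (-0.52, adjusted p = 0.0570). Of the feedback inhibitors, 14 of 18 were tested, and 2 rose and 2 fell in A/J. The dual-specificity phosphatases Dusp8 and Dusp10 fell by 0.98 ± 0.21 (adjusted p = 0.00324) and 0.82 ± 0.24 (adjusted p = 0.0208). Zfp36l1, which promotes decay of AU-rich messages, rose by 0.76 ± 0.17 (adjusted p = 0.00524), and Spred1, an inhibitor of Ras signalling, rose by 0.55 ± 0.13 (adjusted p = 0.00687). Dusp10 was not called without A/J saline array 1 (-0.68, adjusted p = 0.0917) nor with median centring (-0.36, adjusted p = 0.232). For the legs of A/JOlaHsd and of A/J-MyD88 deficient mice, 0 of 17 and 0 of 14 in these lists passed. The lowest unadjusted p was 0.0120 (inputs, A/JOlaHsd). Of all genes, 1.9% passed in A/JOlaHsd and 0% in A/J-MyD88 deficient mice.

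Among 14 of 17 other bZIP factors tested, 3 rose and 2 fell in A/J. The largest differences were those of Cebpd (0.71 ± 0.21, adjusted p = 0.0249) and Maf (-0.66 ± 0.18, adjusted p = 0.0141). Cebpd was not called without A/J saline array 3 (0.62, adjusted p = 0.106) and Maf not without A/J ssRNA array 3 (-0.62, adjusted p = 0.0531). Of 12 integrated stress response genes tested, 2 rose and 2 fell. The serine synthesis enzyme Psat1 rose by 2.02 ± 0.22 (adjusted p = 1.11e-05) and the asparagine synthetase gene Asns by 0.81 ± 0.17 (adjusted p = 0.00273). Ppp1r15a, which restores translation after stress, and Ddit3, which encodes CHOP, fell by 0.75 ± 0.12 (adjusted p = 0.000317) and 0.74 ± 0.17 (adjusted p = 0.00541). Median centring ended the call on Ddit3 (-0.51, adjusted p = 0.0923). Psat1 responded less in A/J-MyD88 deficient than in A/J mice, by -2.27 ± 0.30 (adjusted p = 0.000521), and its A/J-MyD88 deficient saline legs already stood 1.60 ± 0.22 above those of A/J (adjusted p = 0.000690).

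Myc itself was not measurable, but 6 of 10 Myc partners and 14 of 16 Myc target genes were tested. In A/J, 2 partners rose and 1 fell, and 1 target rose and 0 fell, with a median of 0.20 over the targets. Mycl, a Myc paralogue, was above background on 3 of 3 ssRNA arrays and 0 of 3 saline arrays and was at least 1.61-fold higher (adjusted p = 0.00539). Mxi1, an antagonist of Myc, fell by 0.82 ± 0.25 (adjusted p = 0.0286), and leaving out A/J ssRNA array 2 ended the call (adjusted p = 0.117). The nucleolar gene Npm1 rose by 0.81 ± 0.17 (adjusted p = 0.00288). Of 10 heat shock genes tested, 1 rose, the small heat shock gene Cryab (0.48 ± 0.17, adjusted p = 0.0495), which was not called without A/J saline array 1 (0.40, adjusted p = 0.174). Between A/J-MyD88 deficient legs 0 genes of the lists and 0% of all genes passed limma's test. The lowest unadjusted p in the lists was 0.0102, among the heat shock genes. The A/J saline group again serves as the reference in all of these A/J values, beside which markers of several cell types rose. Of those tested, these were 14 of 17 macrophage, 6 of 9 fibroblast, 5 of 5 T and NK cell, 4 of 7 satellite cell and myoblast and 2 of 2 neutrophil markers, with 0 of 7 endothelial ones, and their part was not tested.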

How the data were processed

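Total RNA from tibialis anterior muscle was measured on 18 Illumina bead arrays. The deposited table holds probe intensities and a detection p-value per array from GenomeStudio, per the submitters' processing notes and the file headers, with no version stated. A second table of normalised intensities was deposited by the authors, and its values share a maximum and nearly the same quartiles within a strain, as quantile normalisation by strain gives; it was used as an alternative. From the deposited intensities, 17 arrays (without A/JOlaHsd ssRNA array 2, mean signal -0.33) were background-corrected by detection p-value, raised by an offset of 16, quantile-normalised and taken to log2 with neqc (limma 3.58.1, R 4.3.3). The filter kept 20825 probes whose detection p was below 0.05 on 3 or more arrays, and the probe with the highest mean stood for a gene with 1 symbol. limma's lmFit and eBayes, with a mean per group (11 residual and 5.01 prior degrees of freedom), gave two-sided p adjusted over 11233 genes by Benjamini-Hochberg.

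Gene positions and promoters are RefSeq's for GRCm38.p6. Same-numbered legs deviated together in A/J (r = 0.137 to 0.435) and A/J-MyD88 deficient mice (0.169 to 0.470) but not in A/JOlaHsd (-0.126 and -0.105). In A/J, however, saline array 3 stood closer to ssRNA array 1 (0.168) than to ssRNA array 3 (0.137). The A/JOlaHsd ssRNA group has 2 arrays, whose deviations mirror each other. The reported fit used no pairing. The replicate block, an alternative, paired same-numbered legs in all 3 strains, which the labels do not state. No label says that arrays come from separate mice, so p-values measure the spread between these samples, which may be technical. The number of arrays limits the precision. Members and lists were chosen with earlier results of these data known; from each list at most 4 called genes with the largest differences are named, and genes most like the set by Pearson r. Alternatives changed the normalisation, background, filter, arrays, groups in the fit, probe rule, spread estimate and pairing. The tests were run on simulated data before use.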

Additional observations from a re-analysis of the deposited data

How the results depend on the processing

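The count of members called was 0 in each of the 8 comparisons and stayed 0 in every alternative except these. In A/J (ssRNA against saline) it was 2 with median centring (Atf3 and Jund), 2 with the replicate block (Atf3 and Jun), and 1 with each strain normalised alone, with the compared groups alone and with the authors' values (Atf3 each time); leaving out an array gave 0 to 1. In saline legs of A/J against A/JOlaHsd it was 2 with median centring (Jun and Jund), and leaving out an array gave 0 to 1. Leaving out an array gave 0 to 1 also for A/JOlaHsd legs and for saline legs of A/J-MyD88 deficient against A/J mice. The replicate block changed no other call of a member. Of 959 values of single members under alternatives, 76 changed sign without a call and 14 were called.

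The count of all genes called moved more. For A/JOlaHsd legs (213) it was 0 with median centring, with the strain normalised alone, with the compared groups alone and with the authors' values, 435 with no filter, 28 with all 18 arrays, and 289 to 516 without an array. For A/J legs (2518) it was 220 with 18 arrays, 3820 with the authors' values and 1537 to 2400 without an array. For the response of A/J minus A/JOlaHsd (850) it was 1754 with median centring, 1358 with strains alone, 5 with 18 arrays, 180 with the compared groups, 1399 with the authors' values and 307 to 1306 without an array. For the response of A/J-MyD88 deficient minus A/J (1144) the same settings gave 1764, 2090, 25, 2184 and 2177, and 599 to 1222 without an array. For saline legs of A/J against A/JOlaHsd (5303) it was 822 with 18 arrays and 4556 to 5488 without an array. For saline legs of A/J-MyD88 deficient against A/J (604) it was 972 with median centring, 15 with 18 arrays, 1024 with the compared groups and 179 to 532 without an array. For their ssRNA legs (636) these were 1247, 18, 1264 and 187 to 393. In A/J-MyD88 deficient legs it was 0 throughout. The array without signal widened the shared spread in the fit with 18 arrays; the cause of the other shifts was not tested.

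Median centring moved the median of all genes to 0.76 in saline legs of A/J against A/JOlaHsd, to 0.23 and -0.14 in the response differences and to 0.10 in A/J legs. Higher against lower calls went from 1394 and 1124 to 2486 and 345 in A/J legs, and from 2502 and 2801 to 7723 and 78 in saline legs of A/J against A/JOlaHsd. In that last comparison 6 of 7 members were then above 0, against 1 before, and the direction turned for Jun (1.18), Fos (1.12), Junb (0.71), Egr1 (1.24) and Atf3 (0.38), and among list genes for Mapk14 (0.48), Mapk9 (0.63), Zfp36l1 (0.53), Spred1 (0.82), Gadd45a (0.38), Psat1 (0.14), Eif2ak2 (0.52), Mxd4 (0.42) and Npm1 (0.46). Hspd1 turned to -0.051 there with the mean of its probes. With 18 arrays Plk3 turned to 0.27 in A/JOlaHsd legs and -0.18 in the response difference of A/J and A/JOlaHsd. The r of Fos with Egr1 ran from 0.839 to 0.938 without an array. Of 22 list genes named by the rule in A/J, 10 were called without each array in turn and 1 with 18 arrays. Fosb and Jund lie near background, which limits their differences.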
